A study of Mus musculus with 4 samples.

Results

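The genes described here encode the machinery of the lysosome and of autophagy: a list of 38 genes, all 38 of which were found by symbol among the 37224 Ensembl mouse gene identifiers counted in the study. By role, 21 encode lysosomal hydrolases, their cofactors and lysosomal membrane proteins, 15 encode autophagy factors, and 2 encode the transcription factors Tfeb and Tfe3. RNA-seq libraries of mouse embryonic stem (ES) cells were compared between 2 wild-type (also titled normal) and 2 Smg6-deficient libraries, with no treatment named in the labels. The Smg6 protein cuts transcripts in nonsense-mediated mRNA decay (NMD), a pathway that removes RNAs carrying a stop codon recognised as premature. The labels give the tissue as embryo. The strain, the Smg6 allele, how the deficiency was made, and whether libraries came from separate cultures, lines or clones are not stated in the sources used here, so p-values rest on a spread between libraries that may be technical. Levels are CPM, that is gene counts scaled to the size of the library with TMM factors, or, between genes, the deposited RPKM, which also divides by gene length. Log2 fold changes give Smg6-deficient relative to wild-type levels, and a gene is called higher or lower where edgeR's quasi-likelihood test gave a Benjamini-Hochberg adjusted p under 0.05 over all 20895 genes tested.

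The lysosome is the acidic compartment in which proteins, lipids and glycans are broken down. Its enzymes reach it through the secretory pathway, and its membrane is protected by heavily glycosylated proteins. Autophagy delivers cytoplasm to it: a kinase complex and a lipid kinase complex start a membrane, proteins of the Atg8 family are attached to that membrane by a conjugation system, and the closed vesicle fuses with the lysosome. Tfeb and Tfe3 activate many genes of both systems. In ES cells Tfe3 is known for holding cells in the self-renewing state.

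The library totals ran from 130888768 to 155391181 counts. Smg6 was counted 13396 and 14071 times in wild-type replicates 1 and 2 and 13366 and 11642 times in Smg6-deficient replicates 1 and 2 (log2 fold change -0.21, edgeR adjusted p = 0.089, SE 0.083). Whole-gene counts do not register the loss of single exons, so this is no check of the labels. All 10 ES cell markers were detected in every library, and 6 were lower and 1 higher in Smg6-deficient cells. Of 15 endoderm markers, 13 were higher and 1 lower. Ttr, called higher, and Afp, the 1 called lower, lay at or below 0.26 RPKM in every library. The summed level of the 15 was 36.5 to 45.8 RPKM in wild-type and 203.2 to 300.1 RPKM in Smg6-deficient libraries, highest in replicate 2. Of 8 fibroblast markers, which would mark feeder cells, 2 were higher and 0 lower, with sums of 93.6 to 137.9 and 133.3 to 154.3 RPKM. Of 6 leukocyte and macrophage markers 1 was higher and 1 lower, with sums of 24.5 to 27.1 and 16.1 to 18.9 RPKM. Most of that sum was Cd68, itself a lysosomal glycoprotein, at 24.3 and 22.1 RPKM in wild-type and 14.9 and 12.1 RPKM in Smg6-deficient libraries, and the others except Csf1r lay at or below 0.49 RPKM in every library. In bulk RNA, fewer cells of a type and less RNA per cell cannot be told apart. The part of these cell types in the results below was not tested.

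All 38 members had enough counts to be tested. In Smg6-deficient cells 15 were lower, among them Gla, Lamp2, Grn, Tfeb and Lamp1, and 4 were higher: the cathepsins Ctsh and Ctsl and the autophagy factors Becn1 and Atg9a. The lower calls were 39.5% and the higher calls 10.5% of the members. Over all genes tested, 39.7% were called: 19.2% lower and 20.5% higher. The median log2 fold change of the members was -0.23, against 0.008 over all genes tested. Wild-type and Smg6-deficient libraries did not overlap for 33 of the 38 members, 25 of them lower and 8 higher. The same held for 73.2% of all genes tested, 35.9% lower and 37.3% higher. These differences were mostly small. Of the 38 members only Gla, Lamp2 and Ctsh were called with at least a 2-fold change, as were 13.5% of all genes tested.

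**Figure D1:**
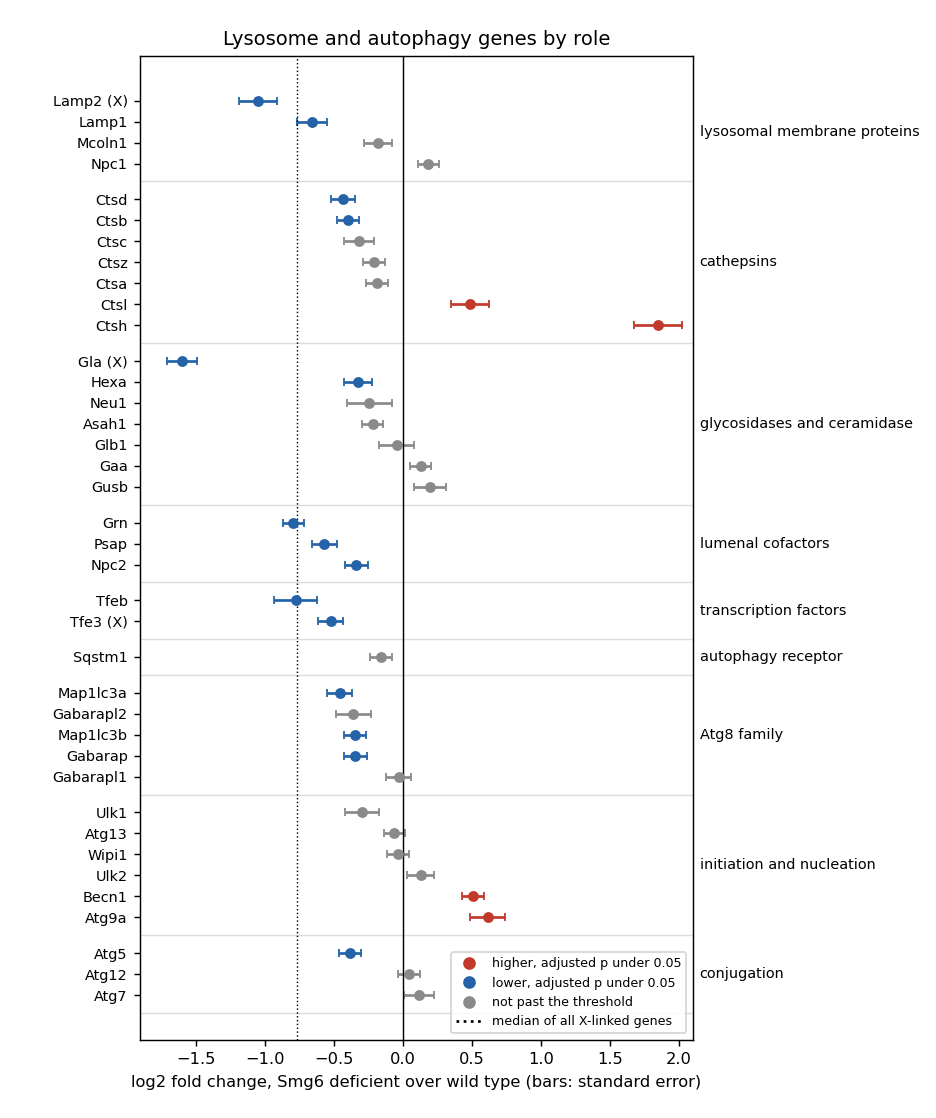
Log2 fold change (horizontal axis) of each of the 38 genes, ordered within its role, with bars of 1 standard error; red and blue points passed the threshold, grey points did not, and X marks X-linked genes. Most points lie left of 0, from Gla at -1.60 to Ctsh at 1.85, and the dotted line marks the median of X-linked genes at -0.76.

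Both transcription factors of the list were lower. Tfeb, which switches on lysosomal and autophagy genes when nutrients are short, stood at 17.7 and 13.4 CPM in the wild-type and at 9.52 and 8.67 CPM in the Smg6-deficient libraries. The groups did not overlap, and the log2 fold change was -0.77 (edgeR adjusted p = 0.0091, SE 0.16). Its call did not hold in limma-trend on log2(RPKM + 1) or log2(RPKM + 0.1) (limma adjusted p = 0.058 in both). Tfe3, its relative, was counted at 252.3 and 251.4 CPM in wild-type and 187.3 and 163.5 CPM in Smg6-deficient libraries. It fell by 0.52 on the log2 scale (edgeR adjusted p = 0.0055, SE 0.092), and the call ended when Smg6-deficient replicate 2 was left out (edgeR adjusted p = 0.066). Per length, Tfe3 was the more abundant of the pair, at 23.4 ± 1.1 RPKM against 2.38 ± 0.57 RPKM for Tfeb (SD, n = 2) in wild-type cells.

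Tfe3, Lamp2 and Gla are X-linked, and all 3 were lower. Of 1040 X-linked genes tested, 590 (56.7%) were called lower, with a median log2 fold change of -0.76. Of 19430 autosomal genes 17.3% were called lower and 21.6% higher, with a median of 0.031. Among the 35 autosomal members 12 (34.3%) were lower and 4 (11.4%) higher, with a median of -0.21. The part of the X-wide difference in the values of Tfe3, Lamp2 and Gla was not tested.

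Tfeb and Tfe3 bind the CLEAR element, a palindrome built on the hexamer CACGTG that was defined in promoters of lysosomal genes, so its presence in this list is not an independent observation. The promoter windows of RefSeq (GRCm38.p6), from 250 bases before to 50 after each start, held an entry for 31 members; none was held for Npc1, Ctsb, Ctsh, Asah1, Map1lc3a, Becn1 and Atg12. TCACGTG, on either strand, was found in 8 of 31 members (25.8%), against 4.29% of 27025 genes. The hexamer CACGTG, which it contains, was found in 10 (32.3%), against 8.09% of genes. Lysosomal genes held 7 of the 8, of 17 with a window, and autophagy genes 1 of 12. The 8 stretches below lie before the RefSeq start and are written 5′ to 3′ along the gene, with capitals marking TCACGTG or its reverse complement CACGTGA; they are shown because they let the element be set beside each gene's change.
Lamp1 (chr8:13159079-13159160, plus strand): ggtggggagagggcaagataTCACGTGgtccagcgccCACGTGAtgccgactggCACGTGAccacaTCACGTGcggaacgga
Gla (chrX:134601217-134601243, minus strand): aagcgattgaTCACGTGAgcatctacg
Ctsd (chr7:142387910-142387936, minus strand): cgcccgcgtcTCACGTGAcccgttgag
Mcoln1 (chr8:3500437-3500463, plus strand): gtcgcgcttgTCACGTGttcagttcag
Ctsa (chr2:164833750-164833772, plus strand): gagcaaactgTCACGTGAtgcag
Glb1 (chr9:114401009-114401055, plus strand): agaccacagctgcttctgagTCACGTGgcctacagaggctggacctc
Gaa (chr11:119267802-119267848, plus strand): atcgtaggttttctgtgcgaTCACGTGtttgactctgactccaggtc
Atg7 (chr6:114670943-114670989, plus strand): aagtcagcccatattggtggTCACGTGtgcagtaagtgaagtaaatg
The stretch of Lamp1 holds 4 such blocks within 82 bases. The windows of Gla, Ctsd, Mcoln1 and Ctsa each hold 2 matches, of which 1 is shown, and those of Glb1, Gaa and Atg7 hold 1. Of the 8 genes, Lamp1, Gla and Ctsd were lower and 5 did not pass the threshold. Of all 31 members with a window 13 were lower, and 10 of these 13 held no TCACGTG in it. Over all genes tested, 19.2% were lower. In the GENCODE M21 annotation the stretches of Ctsa, Ctsd and Atg7 lie within the gene, and that of Mcoln1 reaches into it. The stretch of Gla lies before Gla, but it or its flanks overlap an annotated exon of another gene. Atg7 starts there at 114643097, so its RefSeq start is an internal one. A match is a description of letters and does not show binding.

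Among lysosomal membrane proteins, 2 of 4 were lower (50%, against 19.2% of all genes tested) and 0 higher. Lamp1 (ENSMUSG00000031447, chromosome 8, 13159161 to 13175338), a major glycoprotein of the lysosomal membrane, stood at 706.1 and 831.9 CPM in wild-type and at 469.6 and 507.3 CPM in Smg6-deficient libraries. The groups were well apart, with a log2 fold change of -0.65 (edgeR adjusted p = 0.0041, SE 0.11). Lamp2, which is needed for fusion of autophagic vesicles, went from 211.4 and 281.9 CPM to 118.3 and 120.4 CPM, a log2 fold change of -1.05 (edgeR adjusted p = 0.0018, SE 0.14). Its wild-type libraries differed from each other more than its Smg6-deficient libraries did. The cholesterol exporter Npc1 had a log2 fold change of 0.19 (SE 0.077) and the calcium channel Mcoln1 one of -0.18 (SE 0.10), and neither passed (edgeR adjusted p = 0.099 and 0.20). The calls of Lamp1 and Lamp2 held without any of the 4 libraries.

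Of the 7 cathepsins, the main lysosomal proteases, 2 rose, 2 fell and 3 did not pass. The calls were 28.6% each way, near the 20.5% higher and 19.2% lower of all genes tested. Ctsh (ENSMUSG00000032359, chromosome 9, 90054152 to 90076089), an aminopeptidase, rose from 2.83 and 2.36 CPM to 8.26 and 10.4 CPM, a log2 fold change of 1.85 (edgeR adjusted p = 0.00063, SE 0.18). It was the member with the lowest wild-type level per length, at 0.73 and 0.57 RPKM, and remained low at 2.05 and 2.46 RPKM. Ctsl, an endopeptidase among the most abundant members, stood at 337.1 and 302.8 CPM in wild-type and at 389.1 and 509.6 CPM in Smg6-deficient libraries (log2 fold change 0.49, edgeR adjusted p = 0.030, SE 0.14). All 4 members that rose, Becn1 and Atg9a included, were highest in Smg6-deficient replicate 2, which also held the highest sum of endoderm markers. A link between these values was not tested. Of the exonic bases of Ctsl, 32.9% are shared with an antisense gene, Gm47123, and a processed pseudogene, Gm49230. The call of Ctsl was lost without that library (0.29 on the log2 scale, edgeR adjusted p = 0.21), with the gene length correction (edgeR adjusted p = 0.063) and in limma-trend on log2(RPKM + 1) (limma adjusted p = 0.12).

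Ctsd, an aspartic protease, fell from 613.0 and 663.9 CPM to 473.1 and 472.2 CPM (log2 fold change -0.43, edgeR adjusted p = 0.0083, SE 0.086). Ctsb, a cysteine protease, fell from 372.8 and 372.5 CPM to 289.7 and 276.2 CPM (log2 fold change -0.40, edgeR adjusted p = 0.0087, SE 0.079). Replicates of each gene lay close together, and the groups did not overlap. Gm49369, on the same strand, shares 34.4% of the exonic bases of Ctsd, and Fdft1, on the opposite strand, 12.8% of those of Ctsb. Without Smg6-deficient replicate 1 the edgeR adjusted p was 0.069 for Ctsd and 0.066 for Ctsb, and without replicate 2 it was 0.070 and 0.13. Ctsa, which also protects 2 glycosidases from degradation, Ctsc, which activates serine proteases, and Ctsz, a carboxypeptidase, had log2 fold changes of -0.19, -0.32 and -0.21. None of these 3 passed (edgeR adjusted p = 0.10, 0.058 and 0.085).

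Of the 7 enzymes that act on glycans and ceramide, 2 fell (28.6%, against 19.2% of all genes tested) and 0 rose. Gla, the alpha-galactosidase that is deficient in Fabry disease, had the largest fall of any member. Its level was 63.2 and 75.4 CPM in wild-type and 22.7 and 23.1 CPM in Smg6-deficient libraries (log2 fold change -1.60, edgeR adjusted p = 0.00025, SE 0.11). Hexa, a subunit of beta-hexosaminidase, went from 128.5 and 152.2 CPM to 108.4 and 116.0 CPM (log2 fold change -0.32, edgeR adjusted p = 0.045, SE 0.10). That call stood near the threshold and was lost with Smg6-deficient replicate 1 left out (edgeR adjusted p = 0.27) or 2 (0.12). It also ended with no filter (edgeR adjusted p = 0.056), with the gene length correction (0.058) and in limma-trend on log2(RPKM + 0.1) (limma adjusted p = 0.051). The sialidase Neu1 (-0.24), the ceramidase Asah1 (-0.22), the beta-galactosidase Glb1 (-0.045), the glucosidase Gaa (0.13) and the glucuronidase Gusb (0.20) did not pass, with edgeR adjusted p from 0.066 for Asah1 to 0.80 for Glb1.

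All 3 lumenal proteins that assist lysosomal enzymes or carry lipid fell (100%, against 19.2% of all genes tested). Grn (chromosome 11, 102430315 to 102437048), the precursor of the granulins, went from 167.7 and 174.7 CPM to 101.2 and 96.6 CPM (log2 fold change -0.79, edgeR adjusted p = 0.00071, SE 0.078). Psap, the precursor of the saposins that present sphingolipids to hydrolases, went from 598.4 and 532.9 CPM to 390.3 and 373.2 CPM (log2 fold change -0.57, edgeR adjusted p = 0.0041, SE 0.093). Both calls held without any 1 library. Npc2, which carries cholesterol to Npc1, fell by 0.34 on the log2 scale (edgeR adjusted p = 0.018, SE 0.082), from 253.6 and 239.9 CPM to 201.7 and 188.9 CPM. Its call was lost with Smg6-deficient replicate 1 left out (edgeR adjusted p = 0.10) or 2 (0.23) and in limma-trend on log2(RPKM + 1) (limma adjusted p = 0.064).

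Per length, the order of the most abundant members differed between the groups. In wild-type cells Lamp1 led with 278.1 and 307.8 RPKM, followed by Ctsd with 216.1 and 219.9, Psap with 193.7 and 162.0 and Ctsl with 151.9 and 128.2 RPKM. None of these neighbours overlapped. In Smg6-deficient cells Lamp1 stood at 178.4 and 182.8 RPKM and Ctsl at 169.2 and 210.1 RPKM, so that these 2 genes could not be ordered. The summed level of the 21 lysosomal genes was 1325 and 1294 RPKM in wild-type and 1009 and 1015 RPKM in Smg6-deficient libraries.

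**Figure D2:**
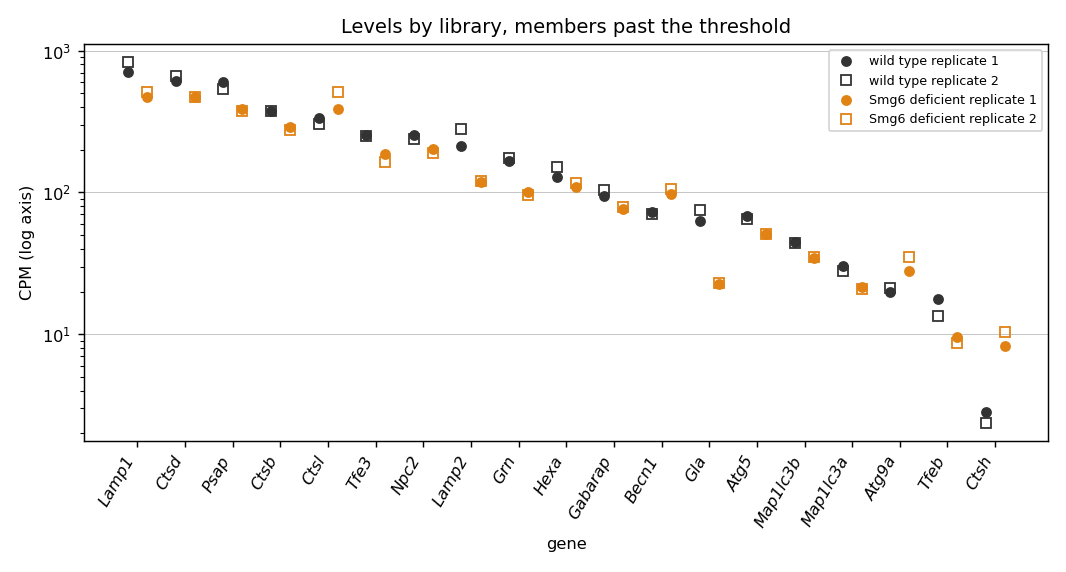
CPM (log axis) of the 19 genes that passed the threshold in each of the 4 libraries, ordered by wild-type mean; black marks are wild type, orange marks Smg6 deficient, and filled circles and open squares are replicates 1 and 2. No pair of groups overlaps, and only Ctsl, Becn1, Atg9a and Ctsh have the orange marks above the black.

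Of the 15 autophagy factors, 4 fell, 2 rose and 9 did not pass. The lower share, 26.7%, lay nearer to that of all genes (19.2%) than the share of lysosomal genes did (9 of 21, 42.9%). The lists of other pathway genes below did not all keep this order. Lower calls made up 20.6% of other lysosomal hydrolases, 33.3% of other lysosomal membrane proteins and 75% of V-ATPase subunits. Among other autophagy factors they made up 32%, and among other autophagy receptors 22.2%. For the members, the shares of higher calls were closer. Higher calls made up 13.3% of autophagy and 9.52% of lysosomal genes. The members' counts rest on both Smg6-deficient libraries. With either left out, fewer lysosomal genes were lower and no lower call of an autophagy gene held. Lower calls then also became fewer over all genes tested. The median log2 fold change was -0.060 for autophagy and -0.24 for lysosomal genes, and -0.22 for the 19 lysosomal genes on autosomes. Taken per library against the wild-type mean, the median of the lysosomal genes was -0.29 and -0.20 in Smg6-deficient replicates 1 and 2, and that of the autophagy genes -0.070 and -0.051. The 2 wild-type libraries lay 0.024 and 0.017 to either side. Since the genes were chosen with results known, the difference between the 2 classes was not tested.

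The Atg8 family, the small ubiquitin-like proteins that are attached to the autophagic membrane, had 3 of 5 members lower and 0 higher. The lower share was 60%, against 19.2% of all genes tested. Map1lc3a went from 30.2 and 28.1 CPM to 21.5 and 20.9 CPM (log2 fold change -0.46, edgeR adjusted p = 0.0088, SE 0.092). Map1lc3b, the form most often used to count autophagic vesicles, went from 44.4 and 43.7 CPM to 34.4 and 35.0 CPM (log2 fold change -0.34, edgeR adjusted p = 0.015, SE 0.080). Gabarap went from 94.4 and 103.4 CPM to 76.7 and 79.2 CPM (log2 fold change -0.34, edgeR adjusted p = 0.018, SE 0.084). In each of these the groups were apart and the Smg6-deficient replicates close. Gabarapl2 had a similar log2 fold change of -0.36 with a larger error (edgeR adjusted p = 0.067, SE 0.13). Gabarapl1 stood at 52.5 and 58.3 CPM in wild-type and 52.7 and 56.0 CPM in Smg6-deficient libraries, and these overlapped (log2 fold change -0.028, edgeR adjusted p = 0.82, SE 0.090). With 1 Smg6-deficient library left out, none of the 3 calls held (edgeR adjusted p from 0.057 for Map1lc3a to 0.18 for Gabarap without replicate 1, and from 0.082 to 0.13 without replicate 2). These genes are similar copies, and the counting of reads with several alignments is not stated in the sources used here.

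Among the 6 factors that start the autophagic membrane, 2 rose (33.3%, against 20.5% of all genes tested) and 0 fell. Becn1 (ENSMUSG00000035086, chromosome 11, 101285952 to 101302286), a subunit of the lipid kinase complex, rose from 72.3 and 70.6 CPM to 97.7 and 105.4 CPM (log2 fold change 0.51, edgeR adjusted p = 0.0037, SE 0.081). The call held without any 1 library. Cntd1, on the opposite strand, overlaps 43.9% of the exonic bases of Becn1, and the kit did not mark strand. Cntd1 itself stood at 33.4 and 33.6 CPM in wild-type and 38.2 and 42.9 CPM in Smg6-deficient libraries (log2 fold change 0.28, edgeR adjusted p = 0.053). Atg9a, the membrane protein that scrambles lipids as the vesicle grows, rose from 19.9 and 21.2 CPM to 28.0 and 34.9 CPM (log2 fold change 0.62, edgeR adjusted p = 0.0093, SE 0.13). The call was lost with Smg6-deficient replicate 2 left out (0.46 on the log2 scale, edgeR adjusted p = 0.057). Ankzf1, which overlaps it on the opposite strand, rose by 0.68 (edgeR adjusted p = 0.0088), and reads from the shared bases cannot be assigned to either gene.

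The kinases Ulk1 and Ulk2, which start autophagy, had log2 fold changes of -0.29 and 0.13, their partner Atg13 one of -0.060, and the lipid-binding Wipi1 one of -0.036. None passed (edgeR adjusted p from 0.10 for Ulk1 to 0.74 for Wipi1). Per length, Ulk1 was the most abundant of the 6, at 60.9 and 45.7 RPKM in wild-type and 45.3 and 38.7 RPKM in Smg6-deficient libraries. Sqstm1, the receptor that brings ubiquitinated cargo to the vesicle, went from 387.4 and 393.3 CPM to 339.3 and 360.3 CPM, a log2 fold change of -0.16 that missed the threshold (edgeR adjusted p = 0.17, SE 0.081). In the conjugation system, Atg5 fell from 68.1 and 64.9 CPM to 51.3 and 50.6 CPM (log2 fold change -0.38, edgeR adjusted p = 0.0094, SE 0.078). Without Smg6-deficient replicate 1 or 2 its edgeR adjusted p was 0.093 and 0.11. Atg12, which is joined to Atg5, had a log2 fold change of 0.047 (SE 0.082) and Atg7, the activating enzyme of the system, one of 0.12 (SE 0.11), with overlapping libraries in both (edgeR adjusted p = 0.68 and 0.42).

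All members that rose have an annotated NMD transcript. In GENCODE M21, 9 of the 38 members (23.7%) have at least 1 transcript of the NMD biotype, against 25.2% of tested coding genes. The 4 higher members, Ctsh, Ctsl, Becn1 and Atg9a, were among these 9, with 4 such transcripts in Becn1 and 1 in each of the others. Tfe3 was the only 1 of the 9 that fell, and Glb1, Gusb, Asah1 and Ulk1 did not pass. Of the 29 members without such a transcript 0 rose and 14 (48.3%) fell. Over all tested coding genes, 33.3% of 4152 with an NMD transcript were higher and 14.6% lower, against 20.7% and 22.3% of 12303 without. The feature was examined after the members' values were seen, and the counts are per gene, so they do not show which transcript changed.

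**Figure D3:**
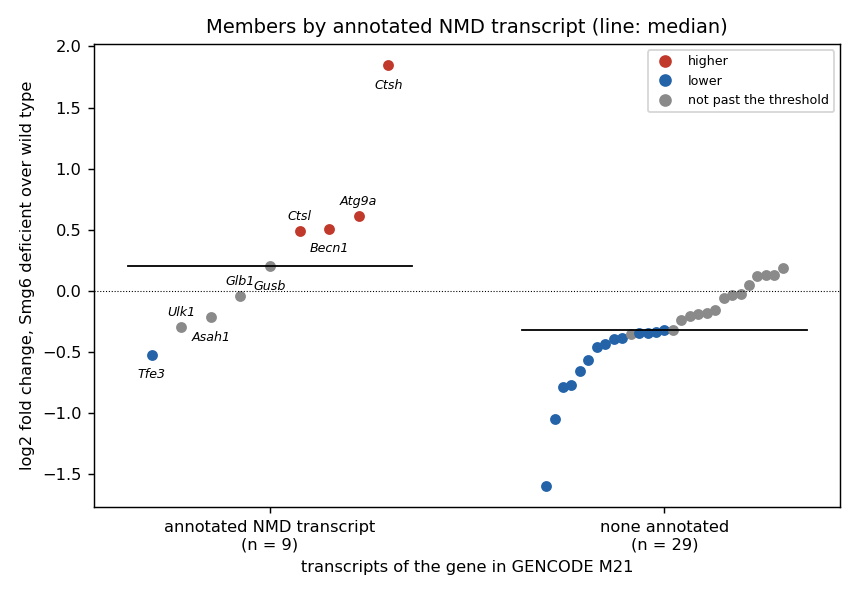
Log2 fold change (vertical axis) of the 9 members with and the 29 members without an annotated NMD transcript, in order of value within each column; black lines are medians (0.20 and -0.32). The 4 red points, called higher, all stand in the left column.

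The other genes of these pathways, 125 on 7 lists, had 27 higher (21.6%) and 42 lower (33.6%), with a median of -0.13. Over all genes tested 20.5% were higher and 19.2% lower, with a median of 0.008. Subunits of the V-ATPase, the proton pump that acidifies the lysosome, had the highest share of lower calls among the 7 lists: 12 of 16 were lower and 0 higher, with a median of -0.38. The smallest p-values were those of its X-linked accessory subunits. Atp6ap2 went from 199.0 and 202.1 CPM to 64.7 and 73.4 CPM (log2 fold change -1.54, edgeR adjusted p = 0.00019, SE 0.091). Atp6ap1 fell by 1.19 on the log2 scale (edgeR adjusted p = 0.00027, SE 0.083). Of the 14 autosomal subunits 10 were lower, with a median of -0.34. Atp6v1g1 (-0.71) and Atp6v0b (-0.61), chosen after their values were seen, parts of the stalk and of the membrane ring of the pump, went from 39.9 and 45.9 to 25.7 and 26.9 CPM and from 78.7 and 91.9 to 55.2 and 57.0 CPM. Fewer of the 16 were lower with Smg6-deficient replicate 1 or 2 left out, as over all genes tested. Their medians were then -0.318 and -0.379.

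Of 34 other lysosomal hydrolases 9 were higher (26.5%) and 7 lower (20.6%), with a median of 0.018. These values lay near those of all genes tested (20.5% higher, 19.2% lower, median 0.008). Man2b1, the lysosomal alpha-mannosidase, rose from 53.4 and 51.4 CPM to 104.8 and 104.1 CPM (log2 fold change 0.99, edgeR adjusted p = 0.00033, SE 0.077), and the acid phosphatase Acp2 rose by 0.65. Gm2a, the activator protein that hands ganglioside to hexosaminidase A, fell from 95.9 and 105.8 CPM to 39.2 and 32.3 CPM (log2 fold change -1.50, edgeR adjusted p = 0.00034, SE 0.12). With Smg6-deficient replicate 1 or 2 left out, fewer hydrolases passed, as over all genes tested, and their medians were -0.013 and 0.043. Among 15 other lysosomal membrane proteins 3 rose (20%) and 5 fell (33.3%). Fewer were lower with either Smg6-deficient library left out, as over all genes tested. The ion channel Tpcn2 rose from 4.69 and 4.65 CPM to 14.5 and 14.2 CPM (log2 fold change 1.62, edgeR adjusted p = 0.00027, SE 0.11). The chloride transporter Clcn7 rose by 1.04 while its partner Ostm1 fell by 0.65. The tetraspanin Cd63 fell by 0.42, a call lost with Smg6-deficient replicate 1 left out (edgeR adjusted p = 0.091) or 2 (0.053).

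Of 6 genes that sort enzymes to lysosomes, 3 rose (50%) and 1 fell (16.7%), against 20.5% and 19.2% of all genes tested. Gnptab and Nagpa, which together build the mannose 6-phosphate tag, rose by 0.70 and 0.65 (edgeR adjusted p = 0.00094 and 0.0084). M6pr, a receptor for that tag, fell by 0.32 (edgeR adjusted p = 0.015), which was lost without Smg6-deficient replicate 1 (0.19) or 2 (0.15). Among 25 other autophagy factors 7 rose (28%) and 8 fell (32%). Fewer passed with either Smg6-deficient library left out, as over all genes tested. The lipid transfer proteins Atg2a and Atg2b rose by 0.90 and 0.95, from 31.9 and 28.9 to 58.3 and 55.2 CPM and from 69.7 and 81.6 to 147.1 and 145.1 CPM. The X-linked Wdr45, a relative of Wipi1, fell by 1.35 and the membrane protein Tmem41b by 0.55. Of 9 other autophagy receptors, Optn rose by 0.44 (edgeR adjusted p = 0.041, and 0.15 without Smg6-deficient replicate 1), and the mitophagy receptors Fundc1, X-linked, and Bnip3l fell by 1.35 and 0.33. The call of Bnip3l was lost with Smg6-deficient replicate 1 left out (edgeR adjusted p = 0.16) or 2 (0.17).

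**Figure D4:**
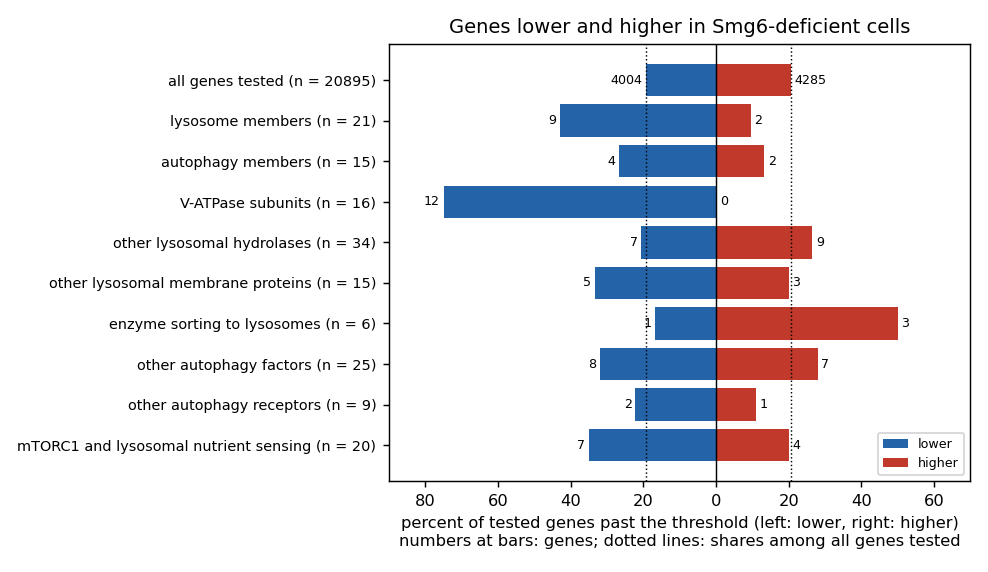
Percent of tested genes called lower (blue, left) and higher (red, right) in all genes, in the members' 2 classes and in the lists of other pathway genes, with gene numbers at the bars and dotted lines at the shares of all genes (19.2% lower, 20.5% higher). The V-ATPase bar reaches 75.0% on the left with 0 genes on the right, whereas other hydrolases extend to both sides.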

How the data were processed

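The authors deposited, for each of 4 libraries, a read count and an RPKM value per Ensembl gene, per the file headers. Single reads of 50 nt came from an unstranded TruSeq v2 kit, per the labels' protocols, and were aligned to mm10 by TopHat2 2.0.9, per the submitters' processing notes; the counter and annotation are not stated in the sources used here. Relative to wild-type replicate 1, the deposited RPKM imply library sizes of 1.018, 1.129 and 1.054 for the others, against count totals of 0.951, 1.129 and 1.002. Symbols and exons came from GENCODE M21 (GRCm38), which named 95.2% of identifiers.

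Groups followed the genotype label. The edgeR 4.0.16 quasi-likelihood F test (R 4.3.3) was run on the counts with TMM scaling, after filterByExpr with a minimum of 10 counts, and the model held genotype alone. SE is the absolute log2 fold change over the square root of F. The step was first tested on simulated data. There only 200 of 20895 genes were changed. Of these, 23 of 50 changed by 0.5 on the log2 scale were called, and 48 of 50 changed by 1. In the deposited data 39.7% of genes were called. The adjustment is then less strict than in the simulation, so these shares do not carry over to the members. A gene that did not pass may still have changed by a small amount. Alternatives used limma 3.58.1 and DESeq2 1.42.0. The members and lists were chosen with earlier results of these data known. Every member was named. From each other list, up to 2 called genes per direction with the smallest adjusted p were named, besides genes chosen after values were seen. One gene that this rule names is not reported here.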

Additional observations from a re-analysis of the deposited data

How the results depend on the processing

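No called member changed direction under any alternative run. Over 567 member values under alternatives, 490 kept their direction and side of the threshold, 29 were no longer past it, 36 became so and 12, all of members not called in either fit, changed sign. With the length correction, without and with the replicate block, Npc1 was at -0.007 in both, Gabarapl1 at 0.001 and 0.002, and Atg12 at -0.082 in both; Atg12 was at -0.010 with library size alone. With 1 library left out in turn, Glb1 ran from -0.236 to 0.163, Neu1 from -0.451 to 0.003, Gabarapl1 from -0.088 to 0.028 and Atg7 from -0.013 to 0.256, with the extremes set by which wild-type library was left out. Of the 19 called members 7 passed under every alternative that included them: Lamp1, Lamp2, Gla, Psap, Grn, Ctsh and Becn1. Leaving out 1 library gave 2 to 5 members higher and 6 to 20 lower, against 4 and 15; lysosomal genes 1 to 3 higher and 5 to 13 lower, against 2 and 9; autophagy genes 1 to 2 higher and 0 to 6 lower, against 2 and 4. Their medians then ran from -0.284 to -0.193 (lysosomal) and from -0.093 to -0.041 (autophagy). The fewest lower calls, among members and over all genes tested, came without a Smg6-deficient library. There 1 library is left in that group and is assumed to vary like the wild type. Higher lysosomal genes numbered 1 in limma-trend with either pseudocount (1 or 0.1 RPKM) and with the gene length correction. The lysosomal median was -0.299 with library size alone and -0.297 with the length correction. The autophagy median was -0.117 with library size alone, -0.103 with the filter of 50 counts, -0.081 on autosomal genes, -0.099 and -0.104 in limma-trend with a pseudocount of 1 and of 0.1 RPKM, and -0.127 with the length correction, without or with the replicate block. The causes were not tested. The replicate numbers do not pair libraries by any label; deviations of same-numbered libraries correlated at 0.155 across genes. With the replicate block, 18 members were lower and 4 higher, and the medians were -0.223 (lysosomal) and -0.060 (autophagy).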

Other observations

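The list of mTORC1, the kinase complex that senses nutrients at the lysosome and restrains Tfeb and autophagy, also held other genes of nutrient sensing. Of 20 genes on that list 4 were higher (20%) and 7 lower (35%), with a median log2 fold change of -0.28. Over all genes tested 20.5% were higher and 19.2% lower, with a median of 0.008, so the higher share lay near that of all genes. The subunits of mTORC1 on the list all rose: Mtor, Rptor (0.72) and Mlst8 (0.58). Rptor and Mlst8 were chosen after their values were seen. Mtor, the kinase itself, stood at 91.2 and 91.0 CPM in wild-type and 160.6 and 149.7 CPM in Smg6-deficient libraries (log2 fold change 0.77, edgeR adjusted p = 0.00081, SE 0.079). Tsc2, which inhibits the complex through Rheb, rose from 82.3 and 79.7 CPM to 156.2 and 152.4 CPM (log2 fold change 0.93, edgeR adjusted p = 4e-04, SE 0.076). Mitf, a relative of Tfeb and Tfe3, fell from 10.2 and 11.1 CPM to 3.50 and 3.70 CPM (log2 fold change -1.57, edgeR adjusted p = 0.00038, SE 0.13). The X-linked Rragb, a GTPase that brings mTORC1 to the lysosome, fell by 1.48 on the log2 scale. Fewer genes of the list were lower with either Smg6-deficient library left out, as over all genes tested. The calls of Mtor, Tsc2, Mitf and Rragb held without any 1 library.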
